A study of Mus musculus with 10 samples.

Results

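Solute carriers are the membrane proteins that move amino acids, sugars, ions, metals, vitamins, nucleosides and metabolites across the plasma membrane and the membranes of organelles. They are numbered by family, so that SLC7 holds cationic and large neutral amino acid carriers, SLC30 and SLC39 move zinc and other metals out of and into the cytosol, and most of SLC25 lies in the inner mitochondrial membrane. A carrier either couples its substrate to an ion gradient, exchanges it for another solute or lets it run down its own gradient, and several work only beside a partner protein. Embryonic stem cells divide quickly and are known for a high demand for amino acids and glucose.

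The genes described here were 217 of the 28459 transcribed units (TUs, each a run of nascent signal along 1 strand) that were tested, and of the 14979 tested TUs that cover a single gene. Per the paper, short gaps in a run were ignored, and a run over several larger genes could be split at an annotated start inside it. A TU was taken where it covered a single gene, where the symbol began with Slc and a family number, and where it held more than 10 fragments in at least 2 of the 10 libraries. Slc28a3, Slc7a5, Slc7a11 and Slc3a2 were left out. Of 233 symbols that met the name rule, 16 did not reach the fragment minimum, among them Slc3a1, Slc5a3, Slc5a8, Slc6a20a, Slc7a14, Slc9b2, Slc10a1, Slc13a2os, Slc22a27, Slc25a29, Slc35f3, Slc35g3, Slc36a1os, Slc45a1 and Slc45a2. Of the 217 genes, 193 had a mean of at least 50 fragments per library. A further 5 of the 217 are named after a carrier without being one (Slc2a4rg-ps, Slc4a1ap, Slc7a6os, Slc9a3r1 and Slc9a3r2) and were kept as a group of their own. For short, all 217 are called carrier genes below, these 5 included.

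Nascent RNA had been measured with TT_chem-seq, in which RNA made during a short pulse of 4-thiouridine (2 mM for 10 min) is fragmented, captured and sequenced. The cells were E14 mouse embryonic stem cells with an FKBP degron on SOX2, a tag through which the small molecule dTAG-13 sends the protein to degradation, and every group grew with LIF, a MEK inhibitor (PD0325901) and a GSK3 inhibitor (CHIR99021). The 5 groups of 2 replicates were DMSO-treated cells (the untreated control, NT) and cells given 500 nM dTAG-13 for 0.5, 1, 2 or 6 hours (h below, hpd in the plots, for hours post depletion). Untagged cells given dTAG-13 were not analysed here, so an effect of the compound itself cannot be told apart from loss of SOX2. Nothing in the labels says whether replicates were separate cultures, and the p-values then measure only the spread between these libraries.

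Library totals ran from 11131490 to 25854106 fragments, of which the 217 genes held 1.00% to 1.07%. Levels are given as CPM, fragment counts scaled to library size with TMM factors, and each value stands for 1 library unless a mean is named. No external standard entered the scaling, so levels are relative, and in these bulk samples fewer cells of a type and less RNA per cell cannot be told apart. The TU of Sox2 itself held 243 and 283 CPM in NT and 271 and 278 CPM at 6 h, where depletion acts on the protein, so this does not check the labels. All 12 embryonic stem cell markers were tested and summed to 4420 to 4860 CPM in NT and 3630 to 3910 CPM at 6 h, where 9 were called down. Of 7 primitive endoderm markers 5 were tested, and their sum was 17.4 to 17.5 CPM in NT and 51.1 to 62 CPM at 6 h, with Dab2 called up. Dab2 alone held 12.7 and 13.7 CPM of that sum in NT and 44.7 and 54.7 CPM at 6 h. The others were not called at 6 h, with log2 fold changes of -0.28 (Gata4), 0.85 (Gata6), 0.88 (Pdgfra) and 1.21 (Sox7). Gata6 was called up at 2 h (1.14, adjusted p = 0.029). Of 7 fibroblast markers 3 were tested, with sums of 10.5 to 13.4 and 28 to 43.6 CPM and Pdgfrb called up, which alone held 11.8 and 8.57 CPM in NT and 41.4 and 25.9 CPM at 6 h. The 3 of 7 trophoblast markers tested summed to 48.4 to 50.9 CPM in NT and 23.5 to 27.8 CPM at 6 h, with 2 called down, and the 6 of 9 primed epiblast and germ layer markers to 37.2 to 40.6 and 30.3 to 32.6 CPM, with 1 called up and 2 down. Sox17, Foxa2, Cdx2, Elf5, Col1a2 and Col3a1 did not pass the fragment minimum. The part of these marker changes in the results below was not tested.

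Levels in untreated cells are compared between genes per length of TU. Slc25a3, which brings phosphate into mitochondria, had 11 ± 1.7 CPM per kb of TU (SD, n = 2) in NT, followed by Slc39a7, which releases zinc from the endoplasmic reticulum, with 7.31 ± 0.41. Slc38a2, a sodium-coupled carrier of small neutral amino acids, had 5.99 ± 1.9, the phosphate importer Slc20a1 5.77 ± 0.30 and Slc35g1 5.15 ± 0.28 CPM per kb. Slc38a2 differed from its neighbours in this order by less than the SD of its 2 libraries, so its place is not settled, and every SD here rests on 2 libraries. Of the 217 TUs, 28 begin more than 10 kb before the annotated gene and also count transcription there, among them those of Slc2a3 (59.5 kb), Slc23a2 (41.4), Slc13a2 (19.6), Slc4a8 (19.1), Slc25a20 (14.4), Slc26a2 (12.8) and Slc35g2 (12.3). The median of the 217 genes was 0.736 CPM per kb and the lowest was Slc25a21, at 0.0131.

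Of 9 carriers of fuels and amino acids in growing cells, 8 were called at no time. Among all TUs 18.8% and among single-gene TUs 22.1% were called at 1 or more times. The other of the 9, Slc7a3, was called down at all 4 times and is described with the amino acid carriers. The glucose carriers Slc2a1 (GLUT1) and Slc2a3 (GLUT3) had means of 139 ± 20 and 254 ± 5.2 CPM in NT and 133 ± 7.1 and 219 ± 16 CPM at 6 h, with log2 fold changes of -0.07 and -0.21. The glutamine carrier Slc1a5 (ASCT2) had a log2 fold change of -0.33 ± 0.12 at 6 h (adjusted p = 0.072), and the arginine and lysine carrier Slc7a1 one of -0.19 ± 0.12 (adjusted p = 0.28). For the lactate carriers Slc16a1 (MCT1) and Slc16a3 (MCT4) it was -0.01 and -0.20, for Slc38a2 -0.09, and for Slc25a5, which exchanges ADP and ATP across the inner mitochondrial membrane, -0.27 (adjusted p of 0.17 to 0.98). An adjusted p above 0.05 does not show that these levels were the same. With an SE of 0.10 to 0.21 for these 8 genes at 6 h, small changes of these genes were not detectable.

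The number of carrier genes called against NT grew with time, and the calls went in both directions. At 0.5 h, 5 genes were up and 2 down, 2.30% and 0.922% of the 217, against 0.527% and 0.787% of all TUs and 0.835% and 0.801% of TUs of single genes. At 1 h, 12 were up and 8 down (5.53% and 3.69%), against 2.15% and 3.61% of all TUs and 3.55% and 3.56% of those of single genes. At 2 h, 19 were up and 13 down (8.76% and 5.99%), against 4.26% and 5.57%, and 6.88% and 5.33%. At 6 h, 31 were up and 21 down (14.3% and 9.68%), against 6.61% and 9.20%, and 10.4% and 7.73%. Upward, the shares of single-gene TUs lay closer to those of the carrier genes than the shares of all TUs did, and downward the carrier genes lay near both backgrounds at 0.5 to 2 h and nearer all TUs at 6 h. The median log2 fold change of the 217 genes was 0.016, 0.055, 0.065 and 0.088 at the 4 times, beside 0.0073, 0.024, 0.047 and 0.071 for single-gene TUs and -0.022, -0.043, -0.040 and -0.036 for all TUs.

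**Figure D1:**
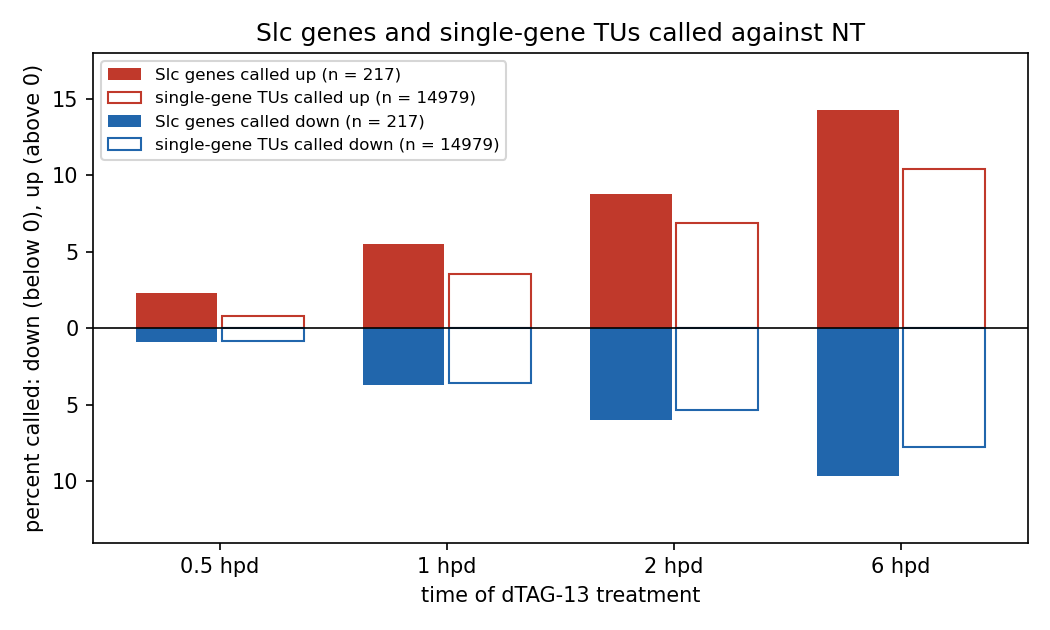
Percent of genes called against NT (vertical axis, up above 0 and down below 0) at each time of dTAG-13 treatment (horizontal axis), for the 217 carrier genes (filled bars) and the 14979 tested single-gene TUs (open bars). Calls up reached 14.3% of carrier genes at 6 h, beside 10.4% of single-gene TUs, and calls down 9.68% beside 7.73%.

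The balance of these calls depended on the scaling, and their number on single libraries and on a replicate block. With such a block, a term for the replicate number, calls up and down were 14 and 6 at 0.5 h and 23 and 14 at 1 h. At 2 h they were 38 and 22, and at 6 h 47 and 32. Scaled by total counts alone, 4 genes were up and 3 down at 0.5 h, 8 and 10 at 1 h, 13 and 19 at 2 h and 23 and 25 at 6 h, and the medians became -0.016, -0.032, -0.054 and -0.003. At 0.5 h only 1 gene was called up without NT replicate 1, without NT replicate 2 or without 0.5 h replicate 2, and 4 were called down without either 2 h library. At 1 h, 4 genes were up without NT replicate 2, 5 without 1 h replicate 1 and 3 without 1 h replicate 2, and 5, 5, 3 and 4 were down without NT replicates 1 and 2 and 1 h replicates 1 and 2. At 2 h, 10, 6 and 10 were up without NT replicate 1, NT replicate 2 and 2 h replicate 1, and 8 were down without NT replicate 2 and without 2 h replicate 1. At 6 h, 13 were up without NT replicate 2 and 13 without 6 h replicate 2, and 10, 13, 10 and 10 were down without NT replicates 1 and 2 and 6 h replicates 1 and 2. DESeq2 called 11 genes down at 6 h.

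Over the time course, 63 of the 217 genes (29%) were called at 1 or more times, against 18.8% of all TUs and 22.1% of single-gene TUs. Of these 63, 39 were called up (8.46% of all TUs and 13.2% of single-gene TUs were), 24 down (10.4% and 8.99%) and 0 in both directions, and 154 were called at no time. The joint test over the 4 times called 45 genes (20.7%), against 12.3% of all TUs and 15.3% of single-gene TUs. That count was 88 with a replicate block and ranged from 30 to 54 with 1 library left out. Slc16a9, Slc30a2 and Slc26a6 were called up at all 4 times (0.228% of all TUs and 0.394% of single-gene TUs were), and Slc28a1 and Slc7a3 down at all 4 (0.766% and 0.788%). Another 25 genes were called at 6 h only, 16 up and 9 down, and the share of all TUs called only then was not computed. At 6 h, called earlier or not, 6.61% of all TUs were up and 9.20% down (single-gene TUs, 10.4% and 7.73%). Of the 111 calls against NT, 40 held under every alternative tried and without each library in turn, while 62 were lost without NT replicate 2 and 41 without NT replicate 1. The losses named below for single calls are not full lists. A fit of only the libraries compared also ended, among others, the calls at 2 h of Slc52a3, Slc4a11, Slc23a2, Slc1a1, Slc43a1 and Slc25a53.

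**Figure D2:**
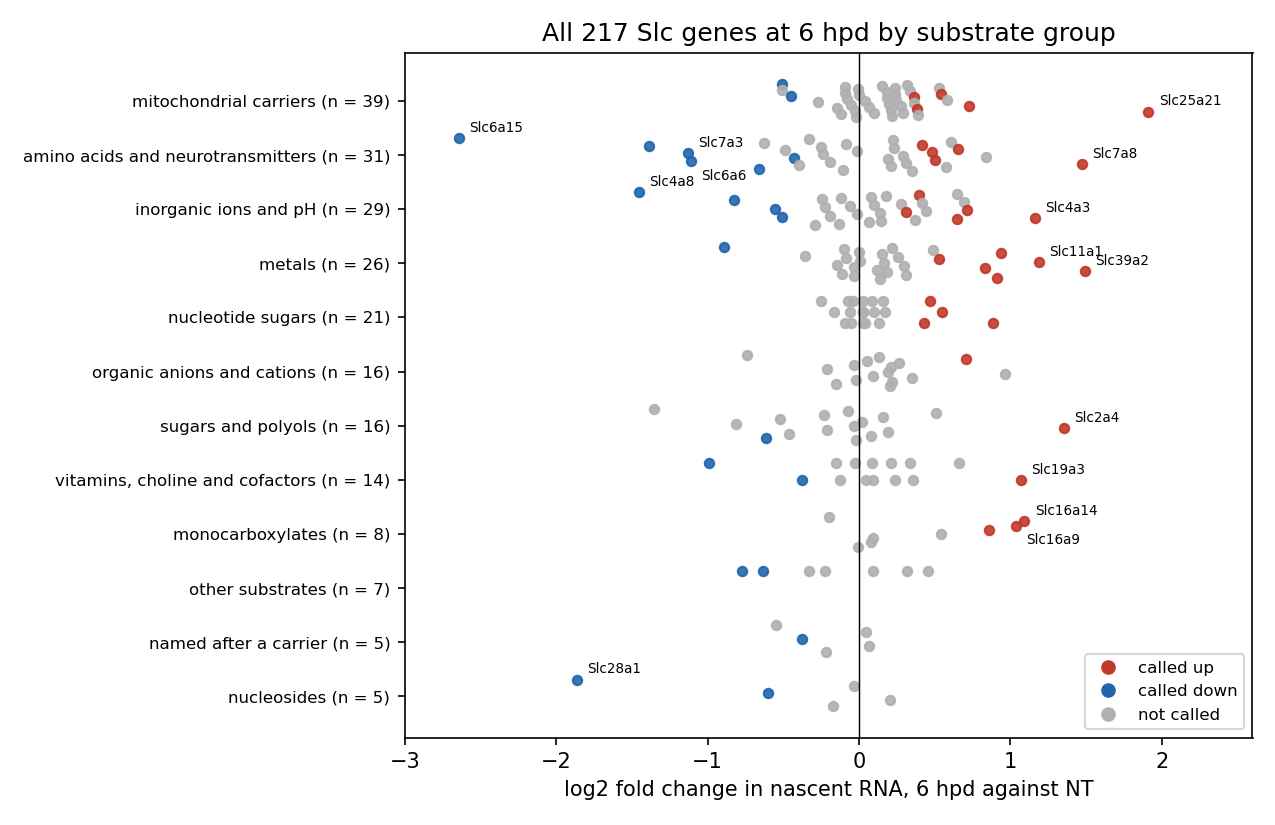
Log2 fold change in nascent RNA at 6 h against NT (horizontal axis) of all 217 carrier genes, in rows by substrate group with the number of genes. Red points were called up, blue points down and grey points not called, and names are given for most called genes that changed by more than 1 on the log2 scale, from Slc6a15 at -2.64 to Slc25a21 at 1.91.

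Nucleoside carriers held the gene with the smallest joint p of all 217. Slc28a1 (mm10, chromosome 7, 81113998 to 81193571, plus strand) encodes the sodium-coupled carrier CNT1, which concentrates pyrimidine nucleosides in the cell. Its level was 47.9 and 43.5 CPM in NT, 24.7 and 24.2 at 0.5 h, 16.7 and 13.6 at 1 h, 13.9 and 11.4 at 2 h and 13.5 and 11.7 at 6 h. All 8 depleted libraries lay below both NT libraries, and most of the fall had taken place by 1 h. The log2 fold changes were -0.90 ± 0.13, -1.59 ± 0.14, -1.85 ± 0.14 and -1.86 ± 0.14 (SE, adjusted p of 0.0031, 7.0e-06, 1.2e-06 and 6.2e-07), and each call held throughout, that is under every alternative tried and without each library in turn. Slc29a2, which lets nucleosides run down their gradient, had 11.2 and 9.23 CPM in NT and fell to 6.25 and 7.16 CPM at 6 h, a log2 fold change of -0.60 ± 0.17 (adjusted p = 0.023). That call was lost without NT replicate 1 or either 6 h library, and with DESeq2. Slc29a1, the most transcribed of the 5 nucleoside carriers per kb in NT, had 0.40 at 1 h (adjusted p = 0.053) and was not called.

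Amino acid and neurotransmitter carriers, 31 genes, changed in both directions, with 8 called up (8.46% of all TUs and 13.2% of single-gene TUs were) and 6 down (10.4% and 8.99%) at 1 or more times and a median log2 fold change of -0.015 at 6 h. In SLC7, the arginine and lysine carrier Slc7a3 (mm10, chromosome X, 101075162 to 101111183, minus strand) had 18 and 18.8 CPM in NT and 9.44 and 7.53 CPM at 0.5 h. It stayed below NT in every depleted library, with 10.3 and 9.96 CPM at 1 h, 12.4 and 11.6 at 2 h and 8.99 and 7.86 at 6 h. The log2 fold changes were -1.10 ± 0.15, -0.86 ± 0.15, -0.61 ± 0.14 and -1.13 ± 0.15 (adjusted p of 0.0015, 0.0022, 0.013 and 0.00012), of which the call at 2 h was lost without NT replicate 2 or either 2 h library. Its TU begins 28.3 kb before the annotated gene, so the values also count transcription there. Slc7a8 (mm10, chromosome 14, 54720396 to 54762897, minus strand), a light chain that exchanges neutral amino acids, moved the other way and later. It had 8.01 and 8.14 CPM in NT, 9.76 and 10 at 0.5 h, 11.5 and 11 at 1 h, 15.4 and 15 at 2 h and 21.1 and 23.6 at 6 h. Every depleted library lay above NT, and the calls at 2 h (0.91 ± 0.14, adjusted p = 0.00046) and 6 h (1.47 ± 0.14, adjusted p = 3.7e-06) held throughout.

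In SLC6, the sodium- and chloride-coupled family, 3 of 8 genes were called down (all TUs 10.4%, single-gene TUs 8.99%) and 1 up (8.46% and 13.2%). Slc6a15 (mm10, chromosome 10, 103367795 to 103425650, plus strand), which takes up branched-chain amino acids and proline, had 14 and 19.3 CPM in NT and 18.3 and 14.1 at 0.5 h, so these groups overlapped. It then had 9.66 and 11.4 CPM at 1 h, 8.04 and 6.43 at 2 h and 2.18 and 3.09 at 6 h. The log2 fold change of -2.64 ± 0.23 at 6 h (adjusted p = 2.9e-06) was the lowest of the 217 genes, after -1.20 ± 0.20 at 2 h (adjusted p = 0.0013). Slc6a6, the taurine carrier (mm10, chromosome 6, 91683319 to 91767476, plus strand), started from 209 and 181 CPM in NT and reached 151 and 154 at 0.5 h, 135 and 138 at 1 h, 103 and 108 at 2 h and 85.8 and 94.6 at 6 h. It fell by 0.51 ± 0.10 on the log2 scale at 1 h (adjusted p = 0.0071), 0.88 ± 0.10 at 2 h (6.2e-05) and 1.11 ± 0.11 at 6 h (4.7e-06). The call at 1 h was lost without NT replicate 1 or either 1 h library, and the TU begins 26.2 kb before the annotated gene.

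Slc6a8, the creatine carrier (mm10, chromosome X, 73673107 to 73689831, plus strand), rose and came back. It had 63.2 and 64.1 CPM in NT, 89.7 and 106 at 0.5 h, 99.4 and 114 at 1 h, 87.7 and 104 at 2 h and 80.1 and 67.6 at 6 h. The rise was called at 0.5 h (0.62 ± 0.13, adjusted p = 0.024), 1 h (0.75 ± 0.13, adjusted p = 0.0020) and 2 h (0.59 ± 0.13, adjusted p = 0.0075) and not at 6 h (0.21, adjusted p = 0.28). Compared directly, 6 h lay below 1 h by a log2 fold change of -0.53 (adjusted p = 0.022). Of these calls only that at 1 h held without each library. The call at 0.5 h was lost without either NT library or 0.5 h replicate 2 and with total counts, that at 2 h without either NT library, and that between 6 and 1 h without either 1 h library or 6 h replicate 2.

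In SLC38, sodium-coupled carriers of neutral amino acids, 4 of 8 genes were called up and 0 down at 1 or more times, where 8.46% of all TUs and 13.2% of single-gene TUs were up and 10.4% and 8.99% down. The family's median log2 fold change was 0.21 at 2 h and 0.14 at 6 h. Slc38a4 had 267 and 248 CPM in NT, 336 and 325 at 0.5 h, 366 and 372 at 1 h, 424 and 384 at 2 h and 391 and 421 at 6 h. Per kb in NT it had 3.56 CPM, next to Slc6a8 (3.81) among the called amino acid carriers. Its TU of 72.3 kb begins 40.3 kb before the annotated gene of 24.5 kb, and what is transcribed there is counted too. For Slc38a4 the changes of 0.65 ± 0.10 at 2 h (adjusted p = 0.00077) and 0.66 ± 0.10 at 6 h (adjusted p = 0.00048) held throughout, while that of 0.52 at 1 h was lost without NT replicate 2 or either 1 h library. Slc38a1 rose from 144 and 110 CPM in NT to 208 and 166 CPM at 2 h and 182 and 179 CPM at 6 h (0.56 and 0.50, adjusted p of 0.019 and 0.023), neither call holding without NT replicate 2. Slc38a6 was called up at 6 h (0.48), lost without NT replicate 2 or 6 h replicate 2, and Slc38a8 at 1 h (0.99), lost without NT replicate 2 or either 1 h library and with total counts. Slc38a2, the most transcribed gene of the family per kb, was not called.

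The remaining amino acid carriers that were called changed by less. Slc1a1, which takes up glutamate, aspartate and cysteine, rose from 79.1 and 82.5 CPM in NT to 113 and 125 CPM at 1 h (0.56 ± 0.10, adjusted p = 0.0032) and 111 and 105 CPM at 2 h (0.42, adjusted p = 0.015). The first call was lost without 1 h replicate 2, the second without either NT library or 2 h replicate 1 and with total counts. The neutral amino acid carriers Slc43a1 and Slc43a2 moved apart by 6 h, Slc43a1 by -0.66 ± 0.12 (adjusted p = 0.0015) and Slc43a2 by 0.42 ± 0.11 on the log2 scale (adjusted p = 0.021). The first held throughout, and the other was lost without NT replicate 2 or either 6 h library and with total counts. Their smaller calls at 2 h (-0.45 and 0.37) were both lost with DESeq2, without NT replicate 2 and without 2 h replicate 1. Slc1a4, a carrier of small neutral amino acids, had -0.43 at 6 h (adjusted p = 0.049), a call that RLE factors, DESeq2, the absence of a count filter and leaving out any of 6 libraries (NT replicate 1, 0.5 h replicate 2 and both libraries at 1 and 6 h) each ended.

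**Figure D3:**
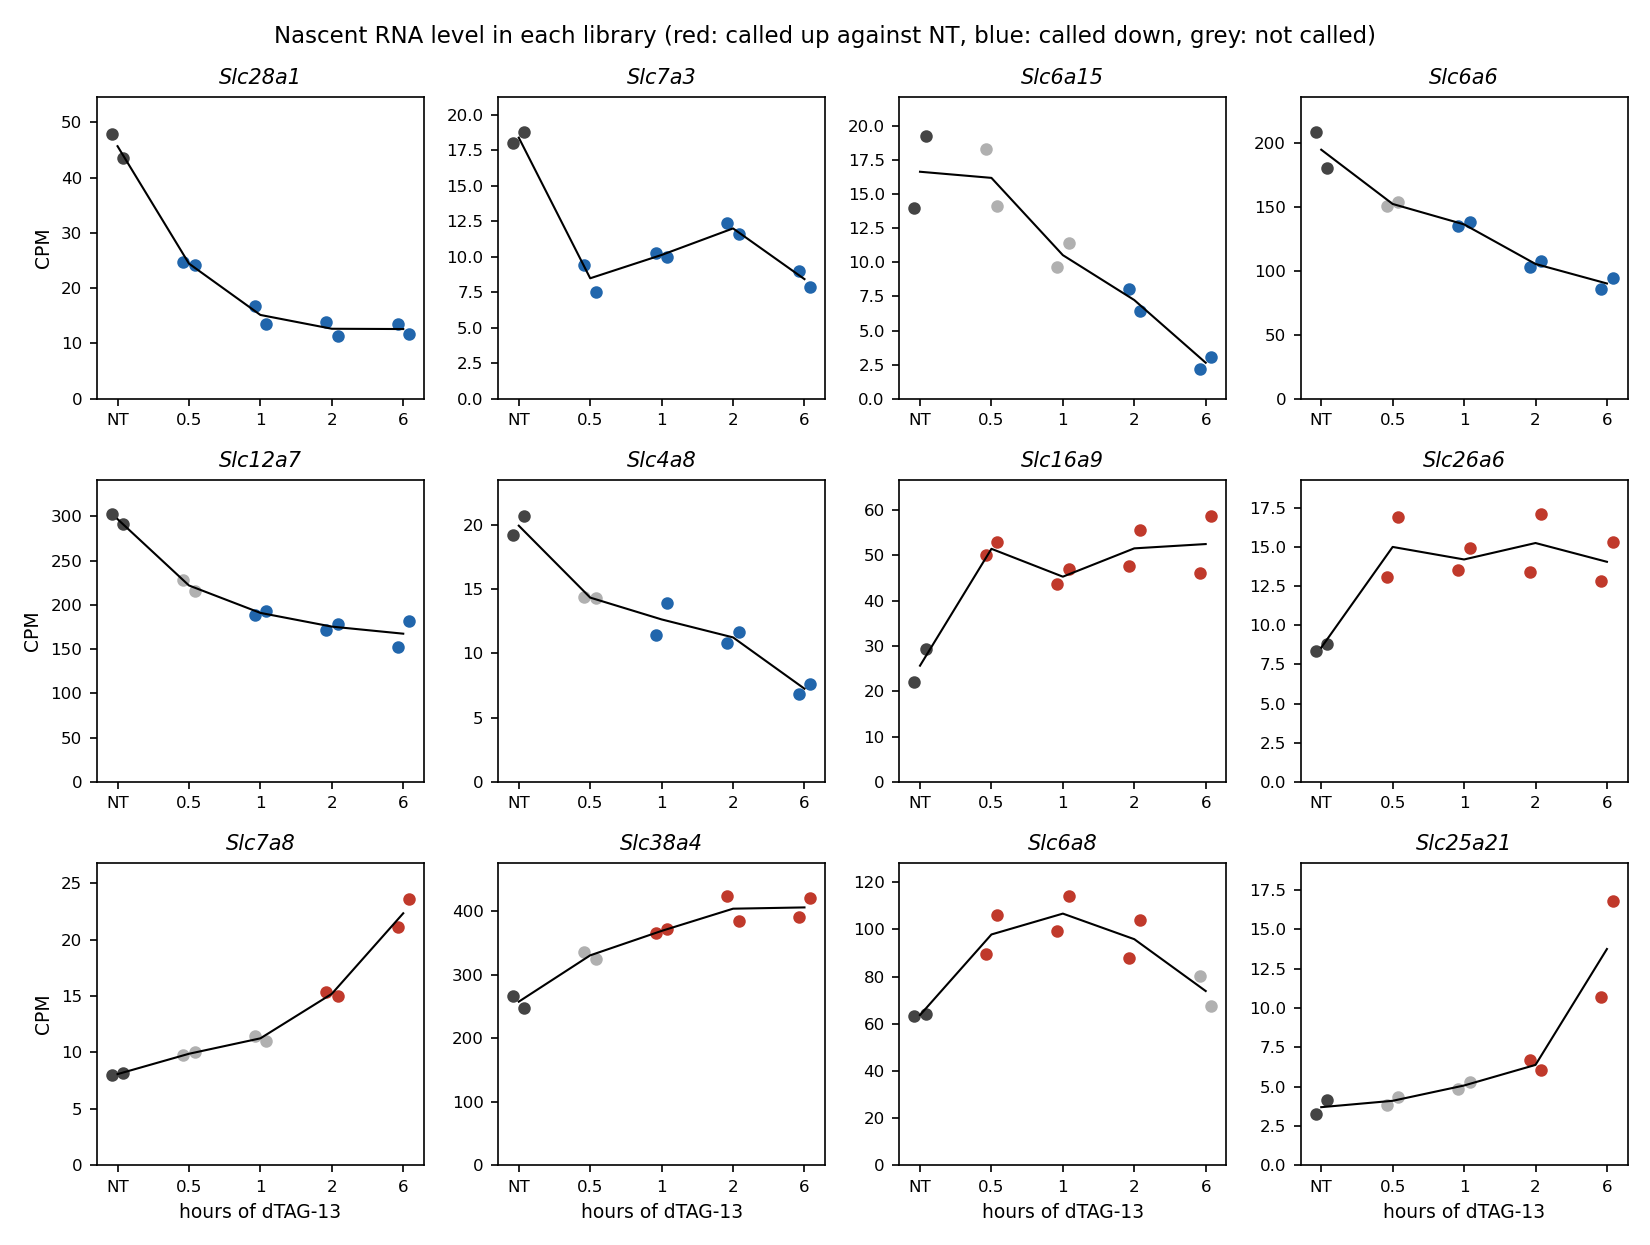
Nascent RNA level in CPM (vertical axes, from 0) of 12 carrier genes in NT and at 0.5, 1, 2 and 6 hours of dTAG-13 (horizontal axes, groups evenly spaced). Each point is 1 library, coloured by the call of its time against NT, and lines join the means of the 2 replicates. Slc28a1 and Slc7a3 were at their first lower level by 0.5 or 1 h, Slc6a15 and Slc4a8 fell on to 6 h, and Slc7a8 and Slc25a21 were highest at 6 h.

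Metal carriers, 26 genes, had 7 called up (all TUs 8.46%, single-gene TUs 13.2%) and 1 called down (10.4% and 8.99%) at 1 or more times and median log2 fold changes of 0.048, 0.14, 0.18 and 0.16 at the 4 times. Over all 217 genes calls up also outnumbered calls down, 39 to 24, and the difference of this group from the rest was not tested. In SLC30, whose members move zinc or manganese out of the cytosol, 4 of 8 genes were called up and 0 down at 1 or more times (up, 8.46% of all TUs and 13.2% of single-gene ones, and down, 10.4% and 8.99%). Slc30a1, the zinc exporter of the plasma membrane (mm10, chromosome 1, 191906703 to 191921536, plus strand), had 32.1 and 27.5 CPM in NT, 45.6 and 50 at 0.5 h, 44 and 54.1 at 1 h, 35.9 and 43.3 at 2 h and 32.2 and 34.2 at 6 h. It was up at 0.5 h (0.68 ± 0.13, adjusted p = 0.019) and 1 h (0.72 ± 0.13, adjusted p = 0.0040), and was lower at 6 than at 1 h (-0.56, adjusted p = 0.022). The first call was lost without any of the 4 libraries compared, the second without NT replicate 2 or 1 h replicate 2, and the third without 1 h replicate 2 or either 6 h library.

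Slc30a2, which loads zinc into vesicles (mm10, chromosome 4, 134342680 to 134368952, plus strand), rose early and stayed up. It had 17 and 18.3 CPM in NT, 32.2 and 37.2 at 0.5 h, 31 and 40.3 at 1 h, 29.5 and 38.6 at 2 h and 31.1 and 31.7 at 6 h, and all 8 depleted libraries lay above NT. Its log2 fold changes were 0.97 ± 0.16, 1.02 ± 0.16, 0.95 ± 0.16 and 0.83 ± 0.16 (adjusted p of 0.0056, 0.00087, 0.0010 and 0.0020), of which the first call was lost without either NT library or 0.5 h replicate 2. The manganese exporter Slc30a10 rose from 14.2 and 16.6 CPM in NT to 24.9 and 33.9 CPM at 6 h (0.94 ± 0.20, adjusted p = 0.0056), lost without NT replicate 1 or 6 h replicate 2. Slc30a9 was called up at 6 h (0.53 ± 0.14, adjusted p = 0.020), lost without NT replicate 2 or either 6 h library.

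In SLC39, whose members bring metals into the cytosol, 2 of 11 genes were called up, both late, beside 8.46% of all TUs and 13.2% of single-gene TUs up at 1 or more times. Slc39a2 (mm10, chromosome 14, 51893609 to 51906797, plus strand) had 5.05 and 5.74 CPM in NT, 6.36 and 6.41 at 0.5 h, 5.52 and 5.81 at 1 h, 8.04 and 10.7 at 2 h and 14.8 and 15.5 at 6 h. The log2 fold change at 6 h was 1.49 ± 0.18 (adjusted p = 3.6e-05) and held throughout, and that of 0.79 at 2 h (adjusted p = 0.010) was lost without NT replicate 1 or 2 h replicate 2. This TU begins 11 bp after that of Mettl17 on the same strand, whose log2 fold change at 6 h was 0.15. Slc39a14, which imports zinc, iron and manganese, had 4.78 and 6.54 CPM in NT and rose to 10.5 and 8.94 CPM at 2 h and 10.6 and 10.7 CPM at 6 h (0.78 and 0.91, adjusted p of 0.013 and 0.0034). Its call at 2 h was lost without NT replicate 1 or 2 h replicate 1, and its TU begins 35.4 kb before the annotated gene. Slc11a1, a divalent metal carrier known from phagosomes, had 9.42 and 12.6 CPM in NT and 11.2 and 10.5 at 1 h, and rose to 24.2 and 25.8 CPM at 6 h (1.19 ± 0.17, adjusted p = 0.00017), which held throughout. Its TU begins 11 bp after that of Catip, which had a log2 fold change of 0.25 at 6 h. Slc41a3 was the metal carrier called down (-0.89 ± 0.27 at 6 h, adjusted p = 0.036), from 4.04 and 3.12 to 1.62 and 2.21 CPM. This call was lost with DESeq2, in a fit of only the 4 libraries compared and without any of these 4.

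**Figure D4:**
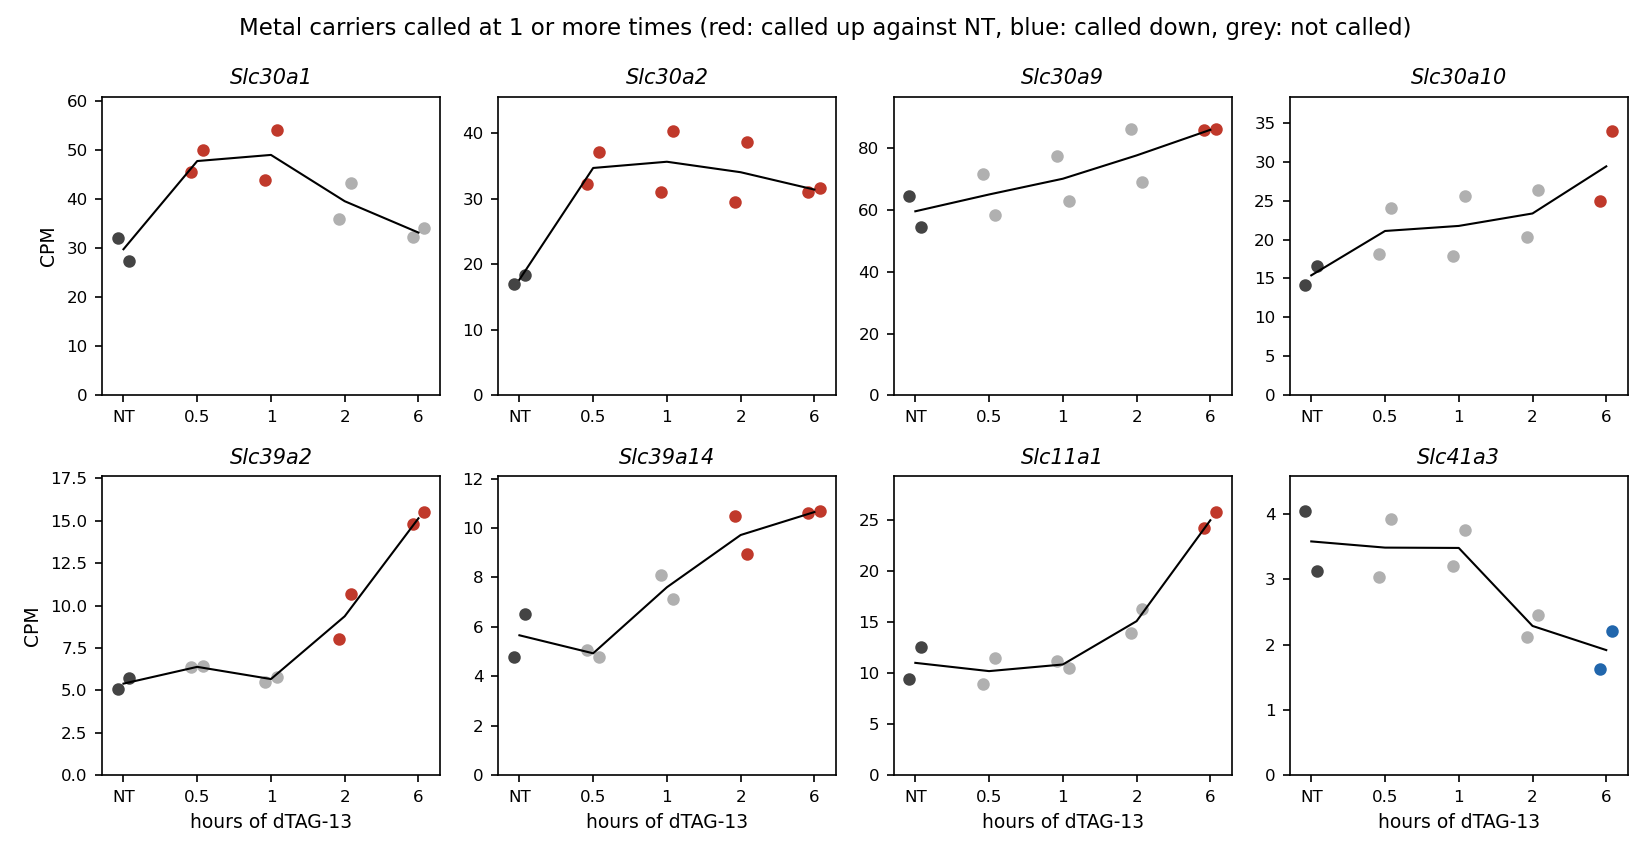
Nascent RNA level in CPM (vertical axes, from 0) of the 8 metal carriers called at 1 or more times, in NT and at 0.5, 1, 2 and 6 hours of dTAG-13 (horizontal axes, groups evenly spaced), 1 point per library, with lines through the means. Slc30a1 was up at 0.5 and 1 h and back at 32.2 and 34.2 CPM at 6 h, Slc30a2 stayed up at every time, and Slc39a2 and Slc11a1 were up late.

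Promoter windows are printed for the 4 genes called at all 4 times that had one (Slc28a1, Slc16a9, Slc26a6 and Slc30a2) and for the other called SLC30 genes, from 250 bases before to 50 after the annotated start, to show which of them hold the core of the SOX motif (ACAANG) or of the metal response element (TGCACNC or TGCGCNC), the sequence through which zinc-responsive MTF1 is known to act. RefSeq windows (GRCm38.p6) were at hand for 166 of the 217 genes, which do not include Slc7a3. Both strands were searched, matches may overlap, and capitals mark matches to either motif. Those of Slc30a1 (chr1:191906531-191906830), Slc30a2 (chr4:134343216-134343515), Slc30a9 (chr5:67306705-67307004), Slc30a10 (chr1:185454598-185454897), Slc16a9 (chr10:70245026-70245325), Slc26a6 (chr9:108853793-108854092) and Slc28a1 (chr7:81114549-81114848) lie on the plus strand and are printed 5′ to 3′.
Slc30a1: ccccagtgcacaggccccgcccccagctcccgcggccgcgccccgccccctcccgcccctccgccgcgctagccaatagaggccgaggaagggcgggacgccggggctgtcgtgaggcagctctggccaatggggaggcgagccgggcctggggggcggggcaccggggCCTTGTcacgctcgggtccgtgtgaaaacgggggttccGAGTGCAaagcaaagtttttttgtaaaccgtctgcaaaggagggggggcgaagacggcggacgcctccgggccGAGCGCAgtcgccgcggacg
Slc30a2: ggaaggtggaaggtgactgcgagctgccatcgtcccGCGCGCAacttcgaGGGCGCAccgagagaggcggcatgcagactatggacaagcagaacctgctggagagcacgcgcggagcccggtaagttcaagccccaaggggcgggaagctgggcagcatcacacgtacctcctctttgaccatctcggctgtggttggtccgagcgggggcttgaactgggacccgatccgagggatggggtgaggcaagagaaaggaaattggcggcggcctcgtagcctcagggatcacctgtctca
Slc30a9: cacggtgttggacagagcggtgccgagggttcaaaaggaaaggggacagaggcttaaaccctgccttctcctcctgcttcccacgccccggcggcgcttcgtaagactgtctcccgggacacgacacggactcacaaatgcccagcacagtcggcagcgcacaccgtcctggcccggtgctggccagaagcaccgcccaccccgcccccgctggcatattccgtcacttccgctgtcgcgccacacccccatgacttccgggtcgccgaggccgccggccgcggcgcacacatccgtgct
Slc30a10: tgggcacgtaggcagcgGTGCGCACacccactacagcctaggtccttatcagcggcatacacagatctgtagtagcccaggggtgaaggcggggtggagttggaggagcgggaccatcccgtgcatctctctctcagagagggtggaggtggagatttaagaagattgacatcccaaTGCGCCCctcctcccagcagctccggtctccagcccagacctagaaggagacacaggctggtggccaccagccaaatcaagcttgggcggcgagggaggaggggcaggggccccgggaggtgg
Slc16a9: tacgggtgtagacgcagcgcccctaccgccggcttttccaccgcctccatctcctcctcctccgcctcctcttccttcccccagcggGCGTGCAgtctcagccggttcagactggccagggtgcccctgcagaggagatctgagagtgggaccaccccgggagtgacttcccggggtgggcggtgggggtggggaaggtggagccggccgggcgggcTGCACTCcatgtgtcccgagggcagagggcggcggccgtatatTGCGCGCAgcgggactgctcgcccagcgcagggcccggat
Slc26a6: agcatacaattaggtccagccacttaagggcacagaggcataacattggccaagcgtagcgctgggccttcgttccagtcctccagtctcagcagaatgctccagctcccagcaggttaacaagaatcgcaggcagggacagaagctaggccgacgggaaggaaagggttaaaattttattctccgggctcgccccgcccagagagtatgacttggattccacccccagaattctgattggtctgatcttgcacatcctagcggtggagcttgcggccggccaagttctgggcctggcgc
Slc28a1: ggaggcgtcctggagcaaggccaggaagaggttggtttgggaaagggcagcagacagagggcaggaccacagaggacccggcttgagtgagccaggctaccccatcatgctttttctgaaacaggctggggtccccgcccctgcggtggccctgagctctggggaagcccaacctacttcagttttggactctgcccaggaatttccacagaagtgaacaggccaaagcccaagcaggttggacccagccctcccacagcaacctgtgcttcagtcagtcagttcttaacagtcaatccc
Slc30a1 held 1 match to the SOX core and 2 to the metal response core, Slc30a2 held 2 of the latter, Slc30a10 3 and Slc16a9 4, and Slc30a9, Slc26a6 and Slc28a1 held 0 of either. The annotated starts lay 78 bp (Slc30a1), 786 bp (Slc30a2), 46 bp (Slc30a10), 2099 bp (Slc16a9), 801 bp (Slc28a1) and 1 bp (Slc30a9 and Slc26a6) after the start of the TU. Among carrier genes with a window, 12 of 22 metal carriers (54.5%) held a metal response core, beside 38.6% of all 166, 55.6% of nucleotide sugar carriers and 25.7% of 32851 RefSeq promoters of the same length. The SOX core was in 25.9% of the 166 windows, in 26.7% of those of genes called up, 23.5% of those called down and 26.1% of those never called, beside 41.2% of all promoters. A match is not a bound site, and a window without a match says only that these letters are not in it.

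Among 29 carriers of inorganic ions and protons, 7 genes were called up and 4 down at 1 or more times, against 8.46% and 10.4% of all TUs and 13.2% and 8.99% of single-gene TUs, so that the calls down lay near the background. Slc12a7 (mm10, chromosome 13, 73759103 to 73825699, plus strand), the potassium and chloride cotransporter KCC4, was among the most transcribed carrier genes and fell from 303 and 291 CPM in NT to 189 and 193 at 1 h, 172 and 179 at 2 h and 153 and 182 at 6 h, with 228 and 216 CPM at 0.5 h in between. Its log2 fold changes of -0.64, -0.76 and -0.83 at 1, 2 and 6 h (SE of 0.11, adjusted p of 0.0017, 0.00027 and 8.0e-05) held throughout. Slc4a8 (mm10, chromosome 15, 100762125 to 100822334, plus strand), a sodium-driven chloride and bicarbonate exchanger, had 19.2 and 20.7 CPM in NT, 14.4 and 14.3 at 0.5 h, 11.4 and 13.9 at 1 h, 10.8 and 11.7 at 2 h and 6.88 and 7.63 at 6 h. Each later group lay lower, and the calls of -0.82 ± 0.14 at 2 h (adjusted p = 0.0014) and -1.45 ± 0.15 at 6 h (adjusted p = 1.0e-05) held throughout, while that of -0.66 at 1 h was lost without NT replicate 2 or 1 h replicate 1. Slc4a11 (-0.55 ± 0.15, adjusted p = 0.018) and Slc12a8 (-0.51 ± 0.15, adjusted p = 0.029) were also down at 6 h, both lost with DESeq2 and without either NT library or 6 h replicate 1 (Slc4a11 also without 6 h replicate 2). Slc4a11 was down at 2 h too (-0.56), lost with DESeq2 and without either NT library or 2 h replicate 1.

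SLC26, a family of anion exchangers, had 4 of 6 genes called up and 0 down at 1 or more times (8.46% and 10.4% of all TUs, 13.2% and 8.99% of single-gene TUs), with a median log2 fold change of 0.47 at 2 h and 0.51 at 6 h. Every call in the family was lost without NT replicate 2. Slc26a6, which exchanges chloride, bicarbonate and oxalate (mm10, chromosome 9, 108854042 to 108862142, plus strand), had 8.35 and 8.79 CPM in NT, 13.1 and 16.9 at 0.5 h, 13.5 and 14.9 at 1 h, 13.4 and 17.1 at 2 h and 12.8 and 15.3 at 6 h. All 8 depleted libraries lay above NT, with log2 fold changes of 0.79, 0.73, 0.83 and 0.71 (SE of 0.17 to 0.18, adjusted p of 0.039, 0.021, 0.0065 and 0.012). Each of these calls was lost without either NT library. Those at 0.5, 1 and 6 h were also lost with total counts, that at 0.5 h without 0.5 h replicate 2, either 1 h library or 6 h replicate 1, that at 1 h without either of its own libraries, and that at 6 h without 6 h replicate 2. The TU begins 11 bp after that of Celsr3, which had log2 fold changes of 0.11 at 1 h and 0.01 at 6 h. Slc26a10 was up at 1 and 2 h (1.20 and 1.19), and Slc26a2, a sulfate carrier, at 2 and 6 h (0.39 and 0.31) and Slc26a9 at 6 h (0.65). Slc4a3, an anion exchanger, was up at 2 h (1.01) and 6 h (1.16 ± 0.28, adjusted p = 0.011), and Slc8b1, the mitochondrial sodium and calcium exchanger, at 1 h (0.49), and without NT replicate 2 neither was called. The call of Slc4a3 at 2 h was also lost with total counts and with DESeq2, and that of Slc8b1 with total counts. Of the 24 calls among ion and proton carriers, 5 held throughout, 19 were lost without NT replicate 2, 12 without NT replicate 1, 7 and 6 without 1 h replicates 1 and 2, and 9 with total counts.

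**Figure D5:**
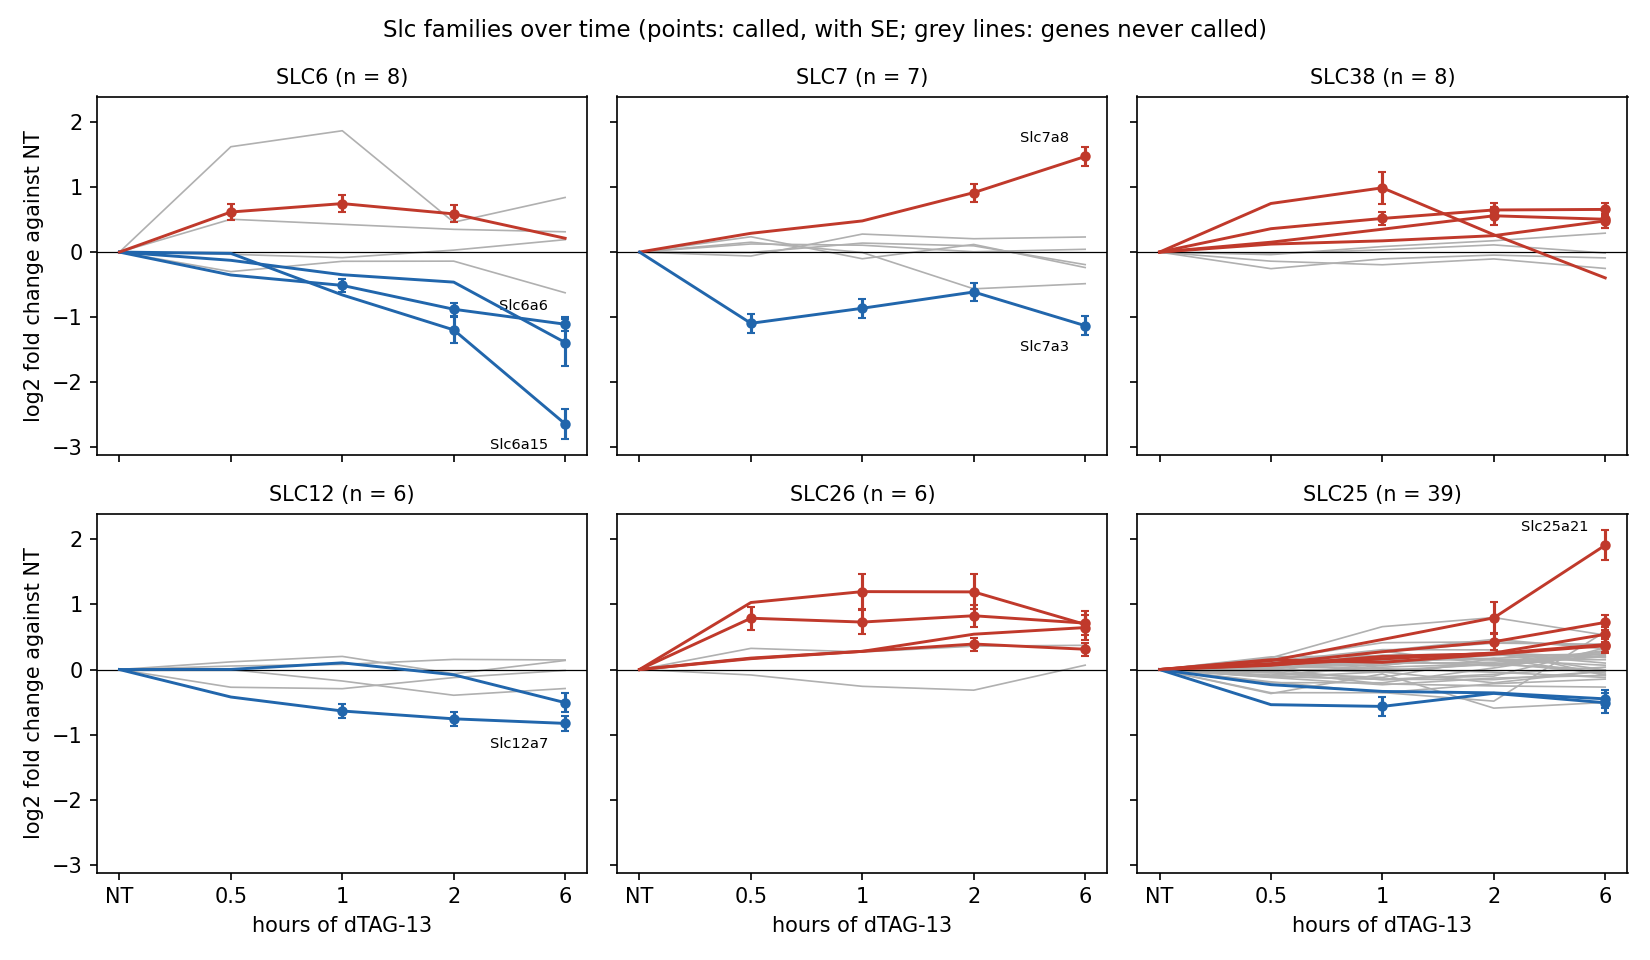
Log2 fold change against NT (vertical axes) over the hours of dTAG-13 (horizontal axes, groups evenly spaced) for every gene of 6 carrier families, with red lines for genes called up at 1 or more times, blue for genes called down and grey for the rest. Points with bars are called values with their SE. In SLC6 the called genes part, with Slc6a15 at -2.64 at 6 h, in SLC26 the 4 called genes lie above 0, and in SLC25 Slc25a21 stands at 1.91.

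Carriers of monocarboxylates, 8 genes of SLC16, had 3 genes called up and 0 down at 1 or more times, beside 8.46% up and 10.4% down among all TUs and 13.2% and 8.99% among those of single genes, with a median log2 fold change of 0.32 at 6 h. Slc16a9, a carnitine carrier (mm10, chromosome 10, 70243177 to 70291283, plus strand), had 22 and 29.3 CPM in NT, 50 and 52.9 at 0.5 h, 43.7 and 46.9 at 1 h, 47.6 and 55.5 at 2 h and 46.2 and 58.8 at 6 h. All 8 depleted libraries lay above both NT libraries. Its log2 fold changes of 1.01, 0.82, 1.01 and 1.04 (SE of 0.15, adjusted p of 0.0028, 0.0032, 0.00039 and 0.00021) held throughout. Slc16a14 rose late, from 10.1 and 13.4 CPM in NT to 21.1 and 28.8 CPM at 6 h (1.09 ± 0.21, adjusted p = 0.0027), a call lost without 6 h replicate 2. Slc16a4 had under 3 CPM in every library and was called up at 6 h (0.86 ± 0.27, adjusted p = 0.045), lost with total counts, with DESeq2 and without any of 7 libraries (both of NT, 1 h and 6 h, and 0.5 h replicate 1).

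Mitochondrial carriers, taken here as all 39 genes of SLC25, were the largest group and 32 of them were called at no time (18.8% of all TUs and 22.1% of single-gene TUs were called at 1 or more), with a median log2 fold change of 0.19 at 6 h. The exception in size was Slc25a21, which carries oxodicarboxylates and had the lowest level per kb in NT (mm10, chromosome 12, 56914602 to 57196142, minus strand). It had 3.23 and 4.14 CPM in NT, 3.82 and 4.36 at 0.5 h, 4.83 and 5.30 at 1 h, 6.67 and 6.08 at 2 h and 10.7 and 16.8 at 6 h. The last group was the widest and still lay above the others, at a log2 fold change of 1.91 ± 0.23 (adjusted p = 3.9e-05) that held throughout, while the call of 0.79 at 2 h was lost with total counts and without any library of NT, 1 h or 2 h. Slc25a20, the carnitine and acylcarnitine exchanger that feeds fatty acid oxidation, had 77.9 and 87.6 CPM in NT and rose to 114 and 126 CPM at 6 h (0.54 ± 0.11, adjusted p = 0.0026), and Slc25a53 rose from 32.3 and 32.1 to 54.4 and 52.1 CPM (0.72 ± 0.12, adjusted p = 0.00085), and both calls at 6 h held throughout. Slc25a53 was also up at 2 h (0.43), lost with total counts and without any of 7 libraries, both of NT among them. Slc25a16 (0.38) and Slc25a30 (0.37) were up, and the citrate carrier Slc25a1 (-0.51) and the glutathione carrier Slc25a39 (-0.45) were down at 6 h. Each of these calls was lost without NT replicate 2 and without 6 h replicate 2. Those of Slc25a16, Slc25a1 and Slc25a39 were also lost with DESeq2, and those of Slc25a16 and Slc25a30 with total counts. Slc25a1 was also down at 1 h (-0.57), lost without either library of NT or 1 h, or 6 h replicate 1.

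Carriers of sugars and polyols, 16 genes, had 1 gene called in each direction, where 13.2% of single-gene TUs were up and 8.99% down (8.46% and 10.4% of all TUs). Slc45a4 fell from 130 and 119 CPM in NT to 87.6 and 84.9 CPM at 2 h and 80.1 and 82.6 CPM at 6 h (-0.53 and -0.61, SE of 0.096, adjusted p of 0.0022 and 0.00048), and both calls held throughout. This TU spans 79.2 kb and begins 49.2 kb before the annotated gene, which spans 16.2 kb. Slc2a4, the insulin-responsive glucose carrier GLUT4, was near the lower limit of detection, with 1.08 and 0.509 CPM in NT and 2.53 and 1.63 CPM at 6 h (1.35 ± 0.39, adjusted p = 0.030), a call lost with DESeq2 and without NT replicate 2 or 6 h replicate 1. In SLC2 as a whole, 1 of 8 genes was called and the median log2 fold change at 6 h was -0.14.

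Carriers of nucleotide sugars and related compounds, 21 genes of SLC35, had 4 genes called up, each of them at 6 h, and 1 down (up at 1 or more times, 8.46% of all TUs and 13.2% of single-gene TUs, and down, 10.4% and 8.99%). Slc35d2, a Golgi carrier of nucleotide sugars (mm10, chromosome 13, 64095055 to 64129369, minus strand), had 16.2 and 17.4 CPM in NT and 17.5 and 20.7 at 1 h, and rose to 30.9 and 31.2 CPM at 6 h (0.89 ± 0.12, adjusted p = 0.00015), which held throughout. Its TU begins 11 bp after that of Zfp367, with a log2 fold change of 0.21 at 6 h. Slc35g2 (0.55), Slc35b3 (0.47) and Slc35f5 (0.43) were also up at 6 h, and each call was lost without NT replicate 2, as was that of Slc35g2 at 2 h (0.54). Slc35g1, the most transcribed of the group per kb, was down at 1 and 2 h (-0.45 and -0.47, adjusted p of 0.027 and 0.016), the first lost without any of the 4 libraries compared and the other without NT replicate 2 or 2 h replicate 1, and was not called at 6 h.

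Among 14 carriers of vitamins, choline and cofactors, 2 genes were called up and 2 down, near the shares of single-gene TUs (13.2% and 8.99%) and of all TUs (8.46% and 10.4%). Slc52a3, the riboflavin carrier (mm10, chromosome 2, 151996534 to 152020975, plus strand), had 18.6 and 20.9 CPM in NT, 26.3 and 27.1 at 0.5 h, 19 and 21.3 at 1 h, 13.7 and 14.6 at 2 h and 10.3 and 9.61 at 6 h. The value at 0.5 h was not called (0.44, adjusted p = 0.12), and the fall at 6 h (-0.99 ± 0.13, adjusted p = 0.00012) held throughout, as did the difference between 6 and 1 h (-1.02, adjusted p = 3.0e-04). Its call at 2 h (-0.49, adjusted p = 0.024) was lost with DESeq2 and without NT replicate 2 or 2 h replicate 1. Slc19a3, a thiamine carrier, had 2.56 and 2.03 CPM in NT and 1.77 and 2.22 at 2 h, and was called up at 6 h with 4.78 and 4.89 CPM (1.07 ± 0.26, adjusted p = 0.011), lost without NT replicate 2 or 6 h replicate 2. The folate carrier Slc19a1 (-0.37 at 6 h, adjusted p = 0.042) and the ascorbate carrier Slc23a2 (0.44 at 2 h, adjusted p = 0.016) changed by less, and both calls were lost without either NT library, the first also with DESeq2 and RLE factors and without either library of 0.5, 1 or 6 h, and the second also without 2 h replicate 1. Slc19a2, the other thiamine carrier and the most transcribed of the group per kb, was not called.

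The 16 carriers of organic anions and cations had 3 calls, for Slc22a21 at 6 h (0.71, up), Slc51a at 1 h (0.90, up) and Slc18b1 at 1 h (-0.51, down), and all 3 were lost without NT replicate 2. Of all TUs 18.8% and of single-gene TUs 22.1% were called at 1 or more times. Slc10a7, the most transcribed of the group per kb, was not called. Slc51a encodes a subunit of an exporter of bile acids and steroids. Slc13a2 passed the joint test (adjusted p = 0.019) and at no single time, with 0.79 and 0.75 at 0.5 and 1 h and -0.03 at 6 h. Of the 7 carriers of other substrates, Slc27a2, which takes up and activates long-chain fatty acids, fell from 6.73 and 5.60 CPM in NT to 2.88 and 2.40 CPM at 2 h (-1.22 ± 0.23, adjusted p = 0.0026), which held throughout, and had 3.30 and 3.90 CPM at 6 h (-0.77, adjusted p = 0.029), lost with DESeq2 and without any of the 4 libraries compared. The peptide carrier Slc15a1 was down at 6 h (-0.63, adjusted p = 0.026), lost without NT replicate 1 or either 6 h library, and Slc27a3, the most transcribed of the group per kb, was not called. Among the genes only named after carriers, Slc9a3r1, a scaffold protein that binds carriers, had 26.8 and 25.3 CPM in NT, 32.7 and 30.7 at 1 h and 19.5 and 20.6 at 6 h, so that 6 h lay below 1 h (-0.66, adjusted p = 0.0030), which held throughout. Its call against NT at 6 h (-0.38, adjusted p = 0.037) was lost with RLE factors, with DESeq2 and without any of 7 libraries (both of NT, 1 h and 6 h, and 0.5 h replicate 2). Its relative Slc9a3r2 was down at 2 h (-0.75), lost with DESeq2 and without either NT library or 2 h replicate 1.

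Times were then compared with each other to ask which changes came early and which late. Between 0.5 and 1 h and between 1 and 2 h, edgeR called 0 of the 217 genes, beside 0.109% and 0.218% of all TUs and 0.134% and 0.280% of single-gene TUs, with 12 and 20 genes at an unadjusted p under 0.05, and DESeq2 called 1 and 0. The first count was 1 without 2 h replicate 1 and with total counts. Between 2 and 6 h, 4 genes were higher and 1 lower at 6 h (0.260% and 0.517% of all TUs, 0.421% and 0.741% of single-gene TUs), led by Slc25a21 (1.12, adjusted p = 0.019) and Slc19a3 (1.28, adjusted p = 0.027) upward and with Slc6a15 (-1.45, adjusted p = 0.012) downward. These 5 calls became 3 with total counts and without 1 h replicate 1 or 2, 0 and 2 without 2 h replicates 1 and 2, and 1 without either 6 h library. With a replicate block there were 15. Between 1 and 6 h, 10 genes were higher and 13 lower (1.96% and 2.92% of all TUs, 2.98% and 3.32% of single-gene TUs). The highest and lowest were Slc25a21 (1.45, adjusted p = 0.00094) and Slc6a15 (-1.98, adjusted p = 2.0e-04), and Slc39a2 (1.42), Slc11a1 (1.20) and Slc7a8 (0.99) were also higher, and these 5 calls held throughout. The 23 calls were 10 and 9 without 1 h replicates 1 and 2, and 11 and 12 without 6 h replicates 1 and 2. They were 38 in a fit of only the libraries compared and 48 with a replicate block.

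Other transport genes and regulators were measured in the same fit. Of 64 carriers of SLC families that bear other names, 46 were tested, with 1, 3, 5 and 7 called up and 1, 2, 3 and 4 down at 0.5, 1, 2 and 6 h and a median log2 fold change of 0.14 at 6 h. At 6 h, 10.4% of single-gene TUs were up and 7.73% down (6.61% and 9.20% of all TUs), and the difference of the list from these shares was not tested. Slco4c1, an organic anion carrier, had the smallest joint p in that list, and went from 23 and 17.4 CPM in NT to 10.2 and 6.24 at 0.5 h and 4.43 and 4.13 at 6 h, with log2 fold changes of -1.25 ± 0.20 and -2.24 ± 0.22 (adjusted p of 0.0060 and 7.6e-06). Of 33 ABC transporters, which pump their substrates with ATP, 29 were tested, and 3 were called in each direction at 6 h, near the same shares, with Abca13 at -1.71 ± 0.20 (adjusted p = 3.4e-05). Of 20 transcription factors known for carrier genes, 17 were tested and 6 were up and 3 down at 6 h, when 6.61% and 9.20% of all TUs and 10.4% and 7.73% of single-gene TUs were. Mycn led that list, with 43.1 and 56.4 CPM in NT and 17.1 and 21.9 CPM at 1 h (-1.35 ± 0.18, adjusted p = 0.00034).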

How the data were processed

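TT_chem-seq libraries of 10 samples (5 groups of 2 replicates, grouped by treatment and time as labelled) were analysed from the fragment counts per transcribed unit that the authors deposited, which are raw and not normalised. Per the methods and the submitters' processing notes, reads were mapped to mm10 with BWA (0.7.17-r1188), filtered with SAMtools (1.10), freed of duplicates with Picard (2.12.0) and split by strand, and units were found on all libraries pooled, so a unit can begin before or run past the annotated gene. Unit positions are those deposited and may begin 1 base low when counted from 1.

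Of 40779 units, the 28459 that exceeded 10 fragments in 2 or more libraries entered the fit in R (4.3.3) with the quasi-likelihood test of edgeR (4.0.16, TMM factors, 1 coefficient per group, all 10 libraries), and a call is a Benjamini-Hochberg adjusted p under 0.05 over all of them. The common biological coefficient of variation was 10%, and replicates correlated with Pearson's r of 0.989 to 0.995 across the log2 CPM of the carrier genes (prior count of 2), which are not independent. DESeq2 (1.42.0), RLE factors, total counts, no count filter, a minimum mean count of 50, a replicate block, a fit of only the libraries compared and leaving out each library were the alternatives. The fit was also run on simulated counts drawn from its own means and spreads, which cannot show how it does on the real libraries.

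The genes, substrate groups, gene lists and tests were chosen with earlier results of these data known. The rule for genes to describe took, at each time and in each direction, the 4 called genes with the smallest p whose values at that time both fell beyond those of NT, in each substrate group the gene with the highest NT level per kb and that with the smallest joint p, 9 carriers of fuels and amino acids, and the 2 called genes with the smallest p in each direction between successive times. Most other called genes are also given, and were chosen after their values were seen, as were the promoters printed. A few genes are counted but not reported here by name. Promoters came from RefSeq (GRCm38.p6).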

Additional observations from a re-analysis of the deposited data

Results flagged for a closer look

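The change of 23 carrier genes against NT differed between 6 and 1 h of dTAG-13, by edgeR's test of the difference itself (adjusted p under 0.05), and both changes share the NT libraries. The log2 difference of 6 over 1 h was positive for Slc25a21 (1.45), Slc39a2 (1.42), Slc11a1 (1.20), Slc19a3 (1.12), Slc16a14 (1.03), Slc7a8 (0.99), Slc35d2 (0.70), Slc22a23 (0.50), Slc25a4 (0.48) and Slc25a53 (0.45). It was negative for Slc6a15 (-1.98), Slc38a8 (-1.38), Slc52a3 (-1.02), Slc4a8 (-0.80), Slc29a2 (-0.73), Slc51a (-0.68), Slc9a3r1 (-0.66), Slc12a8 (-0.61), Slc6a6 (-0.60), Slc30a1 (-0.56), Slc6a8 (-0.53), Slc17a9 (-0.52) and Slc45a4 (-0.37). Of these genes, Slc22a23, Slc25a4 and Slc17a9 were called at no time against NT. No group had enough libraries to look for a single library far from the rest.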

How the results depend on the processing

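The replicate numbers did not mark shared origin in the labels, and the deviations of same-numbered libraries correlated by 0.074 (0.5 and 6 h) to 0.29 (0.5 and 2 h), all above 0 but 2 of 10 under 0.1, so the numbers were not taken to pair the samples, though they may mark something shared. With a replicate block, calls up and down were 14 and 6 at 0.5 h, 23 and 14 at 1 h, 38 and 22 at 2 h and 47 and 32 at 6 h, with 1, 2, 15 and 48 between 1 and 0.5, 2 and 1, 6 and 2, and 6 and 1 h, and 88 in the joint test.

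A fit of only the libraries compared called 19 genes up at 1 h and 38 between 6 and 1 h. DESeq2 called 11 down at 6 h and 1 between 1 and 0.5 h, and total counts gave 3 between 6 and 2 h and 1 between 1 and 0.5 h. Leaving out 1 library at a time, calls up and down ranged from 1 to 6 and 2 to 4 at 0.5 h, 3 to 15 and 3 to 9 at 1 h, 6 to 20 and 8 to 15 at 2 h and 13 to 36 and 10 to 22 at 6 h. Between times they ranged from 0 to 1 (1 and 0.5 h), 0 to 0 (2 and 1 h), 0 to 5 (6 and 2 h) and 9 to 28 (6 and 1 h), and in the joint test from 30 to 54. The cause of these shifts was not tested. Of 2355 values of 139 single calls under the alternatives, 1957 kept their side of the threshold, 398 no longer passed it and 0 turned direction. With 2 libraries a group and no external standard, small changes and shifts shared by all genes were not detectable.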
